A study of Mus musculus with 75 samples.

Results

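Polycomb proteins and the enzymes that undo their marks form the gene set described here: subunits of the Polycomb repressive complexes PRC1 and PRC2, the H2AK119 deubiquitinases and the H3K27 demethylases. The rule names 41 gene symbols by the role of their proteins and uses no measured value. The members were, however, chosen with earlier results of these data known. All 41 were found among the 37310 gene identifiers of the cortex and nuclei libraries and among the 55487 identifiers of the hippocampus libraries. All 41 also had enough reads to be tested in every comparison.

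The libraries came from C57BL/6 mice at postnatal day 21 carrying alleles of Dnmt3a, which encodes a de novo DNA methyltransferase in 2 isoforms, the long DNMT3A1 and the shorter DNMT3A2. Cerebral cortex was sequenced from Dnmt3a1-/- mice (3 libraries), which lack the long isoform, from Dnmt3a1_delta_N mice (3 libraries), whose long isoform lacks its N-terminal region, and from Dnmt3a2-/- mice (2 libraries), which lack the short isoform. Wild type cortex libraries carry 3 numbering series in their labels, here called plain (3 libraries), n (3 libraries) and r (2 libraries). Dnmt3a1-/- cortex was set against the plain series, Dnmt3a1_delta_N cortex against n and Dnmt3a2-/- cortex against r. Hippocampus came from Dnmt3a1-/- and wild type mice (3 libraries each), and cortical neuron nuclei, sorted with an antibody against NeuN, came from mice labelled Dnmt3a1-/- and from wild type mice (2 libraries each). That makes 26 RNA libraries in 10 groups out of 75 samples, and the other 49 samples were not analysed here. The labels name no promoter, Cre driver or pooling of animals, and they leave unsaid whether each library is a separate animal. Every p-value below therefore rests on the spread among these libraries, which may be technical.

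PRC2 is a histone methyltransferase. EZH1 or EZH2 in it place methyl groups on lysine 27 of histone H3, and EED and SUZ12 hold the complex together. PRC1 attaches ubiquitin to a lysine of histone H2A (H2AK119) through RING1 or RNF2, which pair with 1 of 6 PCGF proteins. CBX proteins, which bind methylated H3K27, define canonical PRC1, and RYBP or YAF2 define the variant forms. USP16 and the BAP1-ASXL enzyme remove the ubiquitin, and KDM6A and KDM6B remove H3K27 methylation. In neurons these marks keep developmental regulators silent, and binding of DNMT3A to ubiquitinated H2A through its N-terminal part has been described.

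Gene totals ran from 8.7 to 39.0 M (mega) counts per library. Levels are given in CPM, counts per M of the library's gene total, without the scaling factors that enter the fold changes. They are not corrected for gene length, so levels of different genes are not compared. A gene was called where edgeR's quasi-likelihood test gave a Benjamini-Hochberg adjusted p under 0.05 over all genes tested, and every fold change is a log2 ratio of the group named first over the other, with its standard error (SE). Dnmt3a itself had 73.2, 80.7 and 74.0 CPM in Dnmt3a1-/- cortex, against 152, 165 and 146 CPM in wild type cortex, a fall of 1.02 ± 0.07 on the log2 scale (adjusted p = 1.2e-05 with edgeR). In hippocampus it had 71.5, 76.1 and 72.3 CPM in Dnmt3a1-/- libraries, against 162, 149 and 134 CPM in wild type libraries (edgeR adjusted p = 0.00011). The nuclei do not show this: Dnmt3a had 382 and 369 CPM in the libraries labelled Dnmt3a1-/-, against 405 and 399 CPM in wild type nuclei, a difference of -0.10 ± 0.15 (edgeR adjusted p = 0.89). Those nuclei are therefore called by their label throughout. In Dnmt3a1_delta_N cortex (135, 139 and 139 CPM, against 147, 162 and 163 CPM in wild type) and in Dnmt3a2-/- cortex (132 and 144 CPM, against 153 and 145 CPM in wild type) the gene total of Dnmt3a was not called.

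In Dnmt3a1-/- cortex 8 of the 41 members were higher than in wild type cortex and none was lower. They were Pcgf2, Phc1, Cbx7 and Ring1 of PRC1, Ezh2, Phf1 and Mtf2 of PRC2, and the deubiquitinase Usp16. In that comparison 17.9% of all 15933 genes tested were called, 8.95% of all genes as higher and 8.91% as lower, so the 19.5% of members called is close to the share over all genes. At an unadjusted p under 0.05 edgeR counted 12 members, of which Rybp was the 1 lower, beside 32.4% of all genes, and DESeq2 called 7 members after adjustment. The median fold change over the 41 members was 0.06, beside 0.01 over all genes. Without regard to sign, the median change was 0.13 over the members and 0.17 over all genes.

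**Figure D1:**
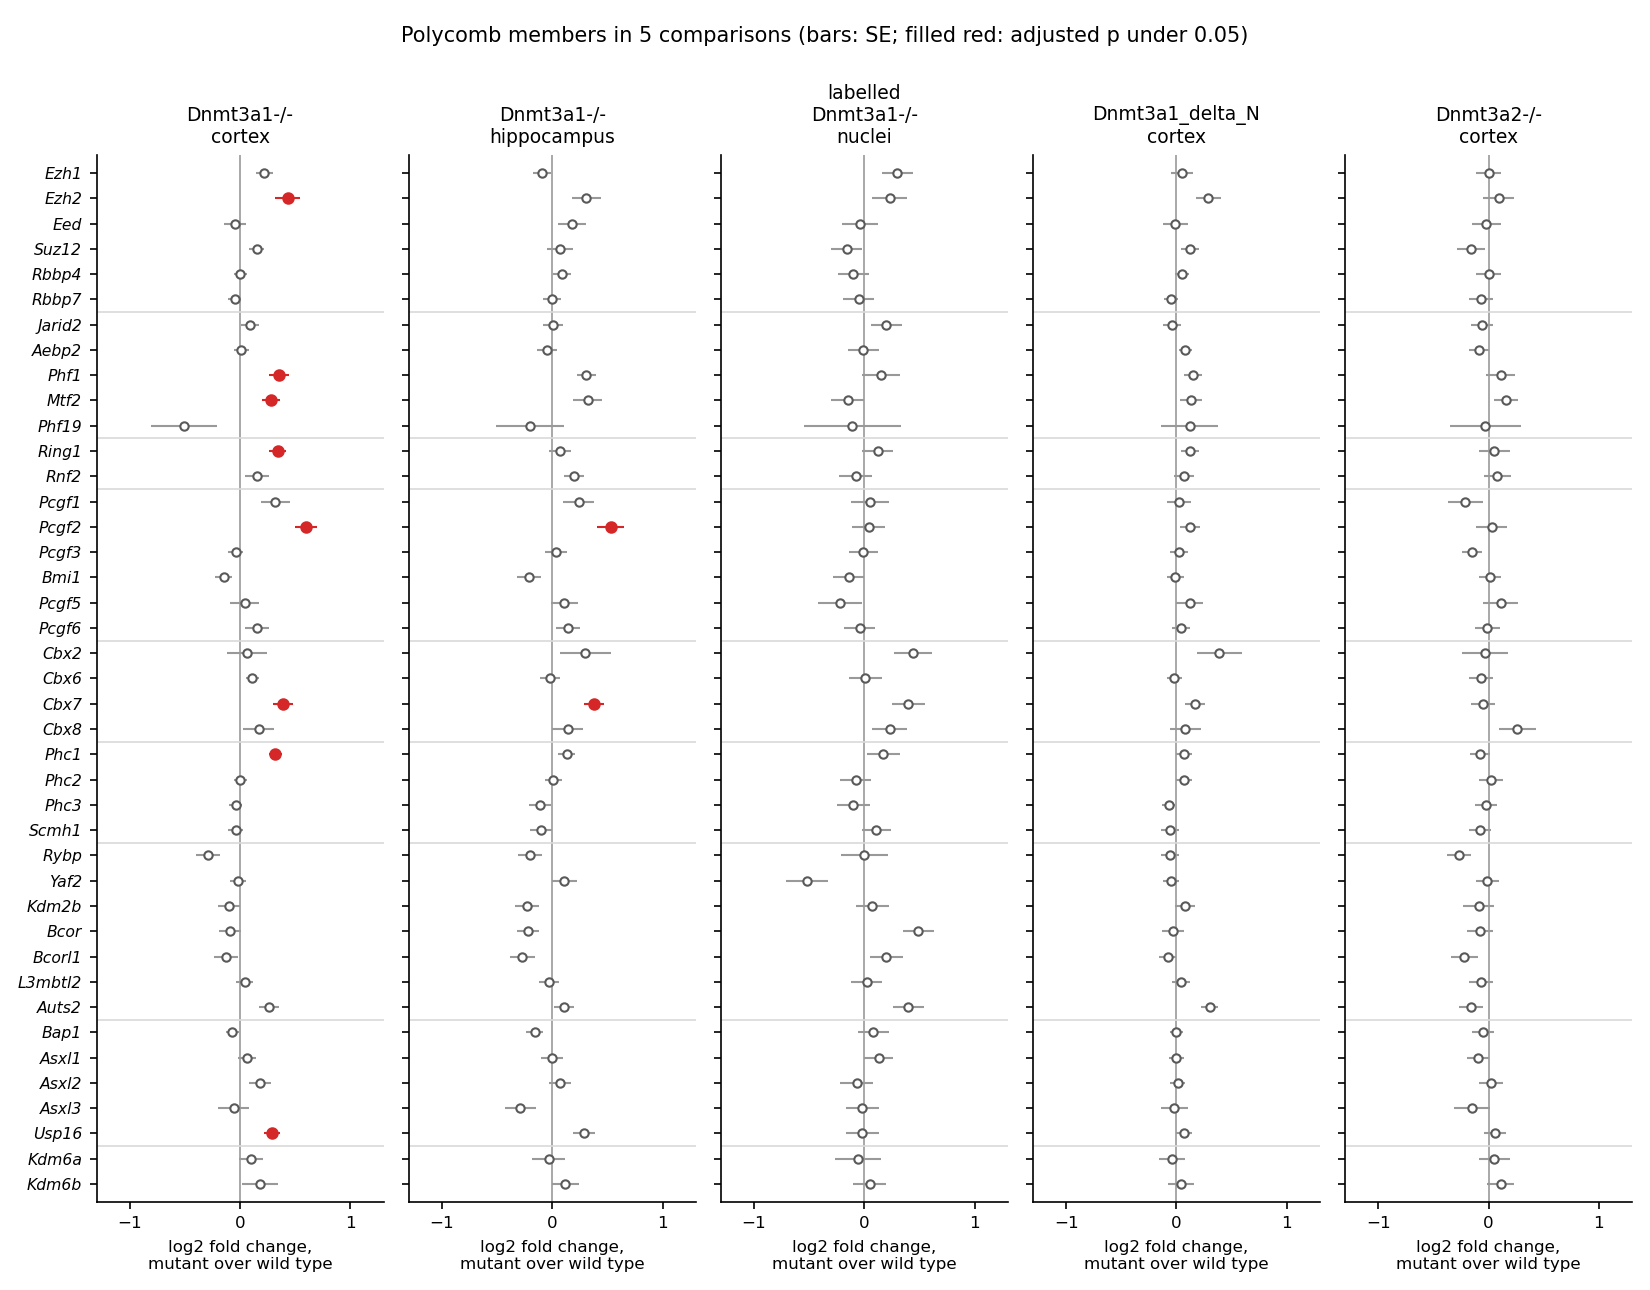
The log2 fold change of each of the 41 members (rows, grouped by role) is plotted with its SE in 5 mutant comparisons, with filled red points where the adjusted p was under 0.05. Filled points stand in the panel of Dnmt3a1-/- cortex (8 members, all to the right of 0) and in that of Dnmt3a1-/- hippocampus (Pcgf2 and Cbx7), and the other 3 panels hold none.

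Pcgf2, also known as Mel18, encodes the ring finger partner of RING1 and RNF2 in a form of canonical PRC1. It had 15.3, 16.4 and 15.7 CPM in Dnmt3a1-/- cortex, against 10.7, 11.3 and 9.17 CPM in wild type cortex. Each mutant library was above each wild type library of that series, and the change of 0.60 ± 0.10 was the largest among the called members (edgeR adjusted p = 0.0018).

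Cbx7 encodes a chromodomain protein that ties PRC1 to methylated H3K27. Its level was 26.9, 30.4 and 25.8 CPM in Dnmt3a1-/- cortex, against 20.2, 21.9 and 21.1 CPM in wild type cortex. The groups did not overlap, and the change was 0.39 ± 0.09 (edgeR adjusted p = 0.0087).

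Pcgf2 and Cbx7 were the members called in cortex and in hippocampus, and the stretch before their start sites is shown because DNMT3A acts on cytosines followed by guanine (CG). Each is the 250 bases before the start on its minus strand, from RefSeq on GRCm38.p6, with CG in capitals. Pcgf2 lies at chr11:97699649-97699898 and Cbx7 at chr15:79932647-79932896.

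Pcgf2: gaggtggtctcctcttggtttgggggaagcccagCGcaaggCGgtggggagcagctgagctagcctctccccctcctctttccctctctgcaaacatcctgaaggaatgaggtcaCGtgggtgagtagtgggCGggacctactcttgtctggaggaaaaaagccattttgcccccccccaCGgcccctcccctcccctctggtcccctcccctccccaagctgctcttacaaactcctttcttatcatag

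Cbx7: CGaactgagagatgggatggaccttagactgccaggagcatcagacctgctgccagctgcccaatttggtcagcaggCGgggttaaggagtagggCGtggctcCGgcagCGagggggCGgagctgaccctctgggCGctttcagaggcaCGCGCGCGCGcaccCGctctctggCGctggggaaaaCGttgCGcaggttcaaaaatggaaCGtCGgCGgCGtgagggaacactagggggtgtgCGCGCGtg

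The Pcgf2 stretch holds 5 CG and the Cbx7 stretch 23. Over the windows of 300 bases in the RefSeq table (250 before and 50 after a start), CG, which reads the same on both strands, occurs in 94.6% of 32851 windows, with a median count of 7. Of the 41 members, with Asxl3 on chromosome 18 left out before the lookup, 34 were matched, with 47 windows, of which 46 hold CG. Their median count was 23, and 41 of the 47 windows lie above the median of all windows. All windows were counted whether or not their gene had enough reads to be tested, while every member had. Windows of tested genes alone were not counted. These counts describe sequence, and methylation was not analysed here.

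Phc1 encodes a polyhomeotic protein whose SAM domain lets canonical PRC1 polymerise. It had 75.3, 82.2 and 76.4 CPM in Dnmt3a1-/- cortex, against 62.7, 63.4 and 61.3 CPM in wild type cortex. The mutant libraries lay above all wild type libraries, by 0.32 ± 0.06 (edgeR adjusted p = 0.005). The other polyhomeotic genes and Scmh1 were not called.

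Of the enzymes of PRC1, Ring1 had 25.0, 24.2 and 23.2 CPM in Dnmt3a1-/- cortex, against 18.3, 19.6 and 19.3 CPM in wild type cortex, without overlap (0.34 ± 0.08, edgeR adjusted p = 0.013). Rnf2, which encodes the other E3 ligase, had 30.1, 22.5 and 27.3 CPM in Dnmt3a1-/- cortex, against 25.7, 20.8 and 24.7 CPM in wild type cortex. Those libraries overlapped, and Rnf2 was not called (edgeR adjusted p = 0.38). None of the 7 members of variant PRC1 was called. Rybp, which encodes a variant PRC1 subunit, was lower in every mutant library (12.2, 14.5 and 13.5 CPM in Dnmt3a1-/- cortex, against 14.9, 16.4 and 18.2 CPM in wild type cortex), with a difference of -0.29 ± 0.11 that missed the threshold (edgeR adjusted p = 0.076).

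The methyltransferase gene Ezh2 had 13.6, 12.6 and 14.3 CPM in Dnmt3a1-/- cortex, against 9.49, 9.76 and 10.8 CPM in wild type cortex. It was higher in each mutant library, by 0.43 ± 0.11 (edgeR adjusted p = 0.014). Ezh1, its paralogue in non-dividing cells, had 43.9, 45.6 and 44.2 CPM in Dnmt3a1-/- cortex, against 35.0, 39.0 and 40.3 CPM in wild type cortex. Here too the groups did not overlap, and the difference of 0.22 ± 0.08 missed the threshold (edgeR adjusted p = 0.06). Of the 6 genes of the PRC2 core, Ezh2 was the 1 called.

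Phf1 and Mtf2 encode Polycomb-like proteins that help PRC2 find CG-rich DNA. Phf1 had 26.9, 27.2 and 22.7 CPM in Dnmt3a1-/- cortex, against 19.1, 20.7 and 20.2 CPM in wild type cortex (0.35 ± 0.09, edgeR adjusted p = 0.018). Mtf2 had 31.7, 28.4 and 31.8 CPM in Dnmt3a1-/- cortex, against 24.8, 24.9 and 26 CPM in wild type cortex (0.28 ± 0.08, edgeR adjusted p = 0.033). In neither gene did the groups overlap. Phf19, the other Polycomb-like gene, was near the limit of counting, with as few as 5 reads in a library, and was not called.

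Among the antagonists, Usp16, which encodes an H2A deubiquitinase, had 44.8, 45.3 and 47.4 CPM in Dnmt3a1-/- cortex, against 37.9, 36.7 and 37.3 CPM in wild type cortex. It was higher without overlap, by 0.29 ± 0.07 (edgeR adjusted p = 0.011). Bap1 and its partners Asxl1, Asxl2 and Asxl3 were not called. The demethylase gene Kdm6a had 25.0, 32.1 and 26 CPM in Dnmt3a1-/- cortex, against 24.4, 30.1 and 23.3 CPM in wild type cortex, and Kdm6b had 26, 19.9 and 15.5 CPM in Dnmt3a1-/- cortex, against 19.8, 16.8 and 16.4 CPM in wild type cortex. Both overlapped between the groups and neither was called.

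Counted by library, 13 members were higher in all Dnmt3a1-/- cortex libraries than in all plain wild type libraries, 1 was lower in all and 27 overlapped. That is 34.1% of the members without overlap, beside 36.1% of all genes tested (18.4% of all genes were higher in all libraries and 17.7% lower). Same-numbered mutant and wild type libraries deviated together, so the replicate number was also fitted as a block. With that block 4941 genes were called, 31% of all tested, and among them were 11 members: the same 8, Auts2 (0.26, edgeR adjusted p = 0.0048), Ezh1 (0.22, adjusted p = 0.012) and, as the 1 lower member, Rybp (-0.30, adjusted p = 0.013). Auts2 encodes a subunit of a PRC1 variant described in neurons. Leaving out 1 library at a time gave 6 to 8 called members, of which 5 to 7 were among the 8. The lowest was 5 of the 8, without wild type replicate 1, where Rybp was called lower in addition (-0.38, edgeR adjusted p = 0.03), and without wild type replicate 3 Auts2 was the additional one. Pcgf2, Phc1, Cbx7 and Usp16 were called in each of the 6 fits. Mtf2 lost its call in 5 of them, all but that without mutant replicate 2. Phf1 lost it without wild type replicate 1, mutant replicate 1 or mutant replicate 2, Ezh2 without wild type replicate 2 or mutant replicate 3, and Ring1 without wild type replicate 1 (edgeR adjusted p = 0.052).

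Markers of other cell types and the share of reads outside genes moved with this comparison. The summed level of 8 markers of dividing cells was 12.7 to 14.4 CPM in Dnmt3a1-/- cortex, against 20.5 to 21.1 CPM in wild type cortex, and 2 of the 8 were called, both lower. Markers of excitatory and general neurons summed to 7210 to 7760 CPM in Dnmt3a1-/- cortex, against 7700 to 8090 CPM in wild type cortex. Of these 10 markers 4 were called, all lower. Inhibitory neuron markers summed to 579 to 718 CPM in Dnmt3a1-/- cortex, against 704 to 772 CPM in wild type cortex, with Gad2 (-0.31) called lower. Hippocampal markers summed to 216 to 231 CPM in Dnmt3a1-/- cortex, against 219 to 234 CPM in wild type cortex. Of them Lct (-1.31), Trpc6 (-0.57) and Fibcd1 (-0.45) were called lower. Choroid plexus markers summed to 822 to 2010 CPM in Dnmt3a1-/- cortex, against 122 to 751 CPM in wild type cortex, with none of 8 called. Oligodendrocyte markers summed to 18900 to 22500 CPM in Dnmt3a1-/- cortex, against 16400 to 19300 CPM in wild type cortex, and 2 of 8 were called higher, Mbp by 0.37 and Mobp by 0.27. Of 6 markers of oligodendrocyte precursors Sox10 was called higher, by 0.33. Astrocyte markers summed to 15800 to 16700 CPM in Dnmt3a1-/- cortex, against 14700 to 16100 CPM in wild type cortex, with Aldh1l1 (0.29) and Gja1 (0.30) called higher and Aqp4 (-0.51) lower. Endothelial markers summed to 567 to 663 CPM in Dnmt3a1-/- cortex, against 604 to 726 CPM in wild type cortex, and 2 of 8 were called, Emcn (-0.67) and Tek (-0.34), both lower. No marker of these lists was at 0 in either group. Uniquely mapped reads outside genes made up 10.34% to 10.8% in Dnmt3a1-/- cortex, against 9.38% to 10.16% in wild type cortex. The part of these shifts in the result was not tested, and in bulk tissue fewer cells of a type and less RNA per cell cannot be told apart.

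The wild type cortex series were also set against each other; these comparisons share the plain series with the Dnmt3a1-/- one, and the values are given side by side. Between series n and plain, 7 members were called, 6 higher and 1 lower, where 20.1% of all genes were called (10.6% higher and 9.42% lower). Pcgf2 had 18.8, 16.7 and 15.1 CPM in series n, above the plain series by 0.66 ± 0.11 (edgeR adjusted p = 0.00064), and Ring1 had 28.7, 30.2 and 28.1 CPM in series n, above plain by 0.57 ± 0.07 (adjusted p = 8e-05). Phf1 was higher in n by 0.41 ± 0.09 (edgeR adjusted p = 0.0046) and Mtf2 by 0.28 ± 0.09 (adjusted p = 0.048). For these 4 genes wild type libraries of series n thus stood as high above the plain series as the Dnmt3a1-/- libraries did, or higher.

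Phc1, Cbx7, Usp16 and Ezh2 were not called between any pair of the wild type series. For these 4 genes every Dnmt3a1-/- cortex library lay above all 8 wild type cortex libraries. That separation was not particular to them: Cbx6, Suz12 and Auts2, not called against the plain series, showed it too. Cbx6 had 722 to 759 CPM in Dnmt3a1-/- cortex, against at most 700 CPM in wild type cortex. In the other direction Rybp, also not called against the plain series, had 12.2 to 14.5 CPM in Dnmt3a1-/- cortex, against at least 14.9 CPM in the 8 wild type libraries. The share of all genes so separated was not counted, and the plain series, which gave the calls, is among the 8 libraries. In series n Phc1 had 64.5, 69.2 and 59.8 CPM, and Usp16 had 38.3, 38.1 and 35.0 CPM. Ezh2 had 8.2, 9.18 and 7.68 CPM in series n, below the plain series by a margin that was not called (-0.29 ± 0.11, edgeR adjusted p = 0.075). With all 8 wild type cortex libraries as 1 control group, 3109 genes were called and 7 of the 41 members were among them. The share of members called in that fit was not compared with the share of all genes, so the 7 calls are given as a count alone. Phc1, Cbx7, Usp16 and Ezh2 were 4 of the 7, while Pcgf2 (0.27, edgeR adjusted p = 0.28), Ring1 (0.07, adjusted p = 0.77), Phf1 (0.21, adjusted p = 0.3) and Mtf2 (0.07, adjusted p = 0.65) were not. In that fit Auts2 (0.22, edgeR adjusted p = 0.048) and Asxl2 (0.26, adjusted p = 0.048) were called higher and Rybp (-0.38, adjusted p = 0.026) lower.

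Between series r and plain 11 members were called, 10 higher and 1 lower, where 33.3% of all genes were called (17.2% higher and 16% lower). Between r and n there were 13, 8 higher and 5 lower, where 27.3% of all genes were called (13.8% higher and 13.5% lower). Kdm6b had the largest such difference. It had 13.6 and 13.8 CPM in series r, against 23.5, 22.3 and 29.6 CPM in series n (-0.86 ± 0.12, edgeR adjusted p = 0.00084). Markers of cell types moved with the series. Neuron markers summed to 8940 to 9390 CPM in series r, against 7700 to 8090 CPM in plain, with 7 of 10 called higher. Microglia markers summed to 1010 to 1020 CPM in r, against 1240 to 1410 CPM in plain, with 7 of 8 called lower, and astrocyte markers summed to 11600 to 11900 CPM in r, against 14700 to 16100 CPM in plain, with 5 of 8 called lower and 1 higher. In r against plain, 4 of 8 inhibitory neuron markers were also called higher, and 3 of 8 oligodendrocyte, 3 of 8 endothelial and 4 of 8 hippocampal markers lower. Between series n and plain, 4 of 8 astrocyte and 4 of 8 hippocampal markers were called lower and 0 higher. There 3 of 10 neuron markers were called higher and 0 lower. The part of these marker shifts in the calls between series was not tested. What the series names stand for is not given in the labels.

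**Figure D2:**
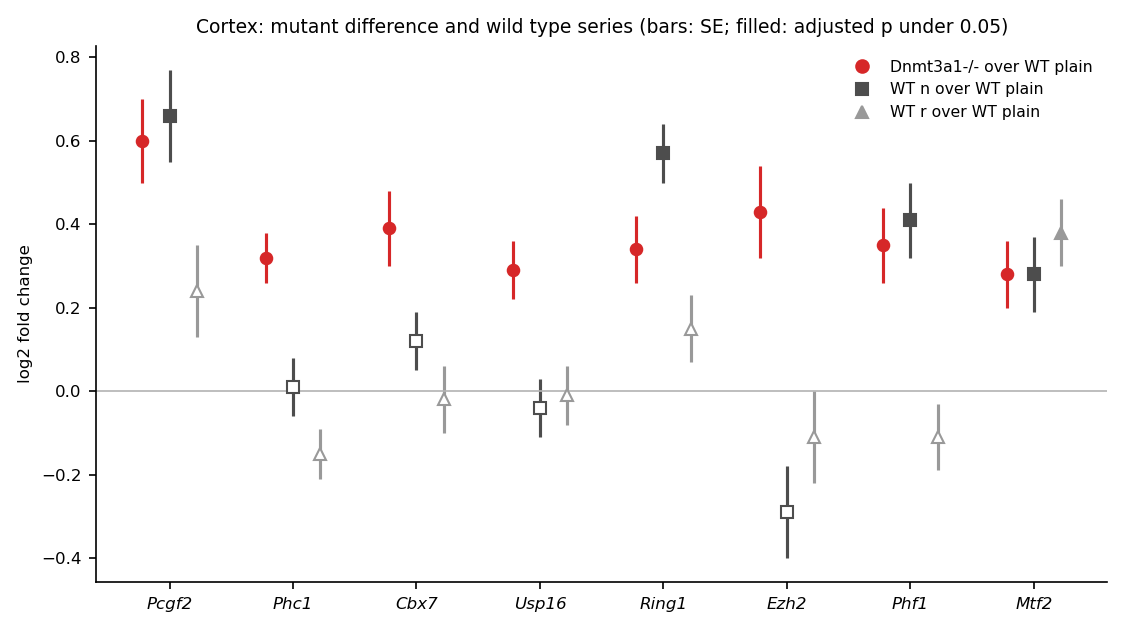
For each of the 8 members called in Dnmt3a1-/- cortex, the log2 fold change with its SE is drawn for Dnmt3a1-/- over plain wild type cortex (circles), wild type series n over plain (squares) and series r over plain (triangles), filled where the adjusted p was under 0.05. Squares are filled for Pcgf2, Ring1, Phf1 and Mtf2, and a triangle is filled for Mtf2, whereas Phc1, Cbx7, Usp16 and Ezh2 have filled circles alone.

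Dnmt3a1_delta_N cortex showed no member called, and among all 15881 genes 0% were called without a replicate block. With the replicate number fitted as a block, 0.749% of all genes were called, and no member was among them. At an unadjusted p under 0.05 edgeR without the block counted 2 members, beside 7.98% of all genes, and DESeq2 also called none after adjustment. The 2 were Auts2, at 42.7, 46.1 and 37.1 CPM in Dnmt3a1_delta_N cortex, against 35.2, 33.6 and 34.7 CPM in wild type cortex (0.30 ± 0.08, edgeR adjusted p = 0.46), and Ezh2. Ezh2 had 9.96, 9.78 and 10.7 CPM in Dnmt3a1_delta_N cortex, against 8.2, 9.18 and 7.68 CPM in wild type cortex (0.29 ± 0.11, edgeR adjusted p = 0.57). Both were higher in each mutant library, without passing the correction. Next was Cbx2, of the canonical PRC1 readers (0.39 ± 0.20, edgeR adjusted p = 0.68), and in the other direction Phc3, Bcorl1 and Yaf2 had the smallest p, with differences of -0.07, -0.08 and -0.05.

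The remaining enzyme genes overlapped between Dnmt3a1_delta_N and wild type cortex. Ezh1 had 50.6, 40.7 and 38.8 CPM in Dnmt3a1_delta_N cortex, against 46.7, 39.2 and 40.6 CPM in wild type cortex. Rnf2 had 28.4, 24.9 and 25.2 CPM in Dnmt3a1_delta_N cortex, against 26.9, 26.3 and 22.6 CPM in wild type cortex. Kdm6a had 20.6, 21.1 and 27.9 CPM in mutant libraries, against 24.0, 22.8 and 25.5 CPM in wild type, and Kdm6b had 22.3, 27.5 and 26.9 CPM in mutant libraries, against 23.5, 22.3 and 29.6 CPM in wild type. In total 7.32% of members and 12.8% of all genes had groups without overlap.

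Whether the change differed between Dnmt3a1_delta_N and Dnmt3a1-/- cortex, each against its own wild type series, was tested as an interaction. No member was called by edgeR or DESeq2, with 0.103% of all genes called by edgeR, and 3 members had an unadjusted p under 0.05, beside 11.4% of all genes. Pcgf2 came nearest, with a change smaller by 0.48 ± 0.14 in Dnmt3a1_delta_N cortex (an interaction of -0.48, edgeR adjusted p = 0.21). With the replicate block 479 genes were called, 2.91% of all tested, and Pcgf2 was the 1 member among them (edgeR adjusted p = 0.048). Its level was 18.7, 17.3 and 18.4 CPM in Dnmt3a1_delta_N cortex, against 18.8, 16.7 and 15.1 CPM in wild type series n, so the interaction also holds the gap between the wild type series.

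In Dnmt3a2-/- cortex no member was called either, where 0.00628% of all genes were called. With 2 libraries against 2, edgeR gave an unadjusted p under 0.05 to 1 member, beside 2.87% of all genes, and DESeq2 called none after adjustment. That member was Rybp, at 17.4 and 17.3 CPM in Dnmt3a2-/- cortex, against 21.0 and 20.5 CPM in wild type cortex (-0.27 ± 0.11, edgeR adjusted p = 1). Bcorl1, a BCL6 corepressor-like gene of variant PRC1, and Pcgf3 followed among the lower members, and Cbx8, Mtf2 and Kdm6b had the smallest p among the higher ones, all with an adjusted p of 1.

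Levels of the enzymes in Dnmt3a2-/- cortex lay within or close to those of wild type. Ezh2 had 10.6 and 9.28 CPM in Dnmt3a2-/- cortex, against 9.49 and 9.21 CPM in wild type cortex. For Ezh1 the values were 45.5 and 38.3 CPM in Dnmt3a2-/- cortex, against 41 and 42.7 CPM in wild type cortex, and for Rnf2 31.8 and 27.2 CPM in Dnmt3a2-/- cortex, against 26.5 and 29.1 CPM in wild type cortex. Kdm6a had 26 and 33.6 CPM in mutant libraries, against 25.9 and 31.3 CPM in wild type, and Kdm6b had 13.8 and 16.1 CPM in mutant libraries, against 13.6 and 13.8 CPM in wild type. Groups without overlap were found for 26.8% of members and 27.4% of all genes.

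In Dnmt3a1-/- hippocampus 2 members were called, both higher, where 2.52% of all 15727 genes were called, 1.69% as higher and 0.827% as lower. Pcgf2 had 16.4, 19.4 and 17.2 CPM in Dnmt3a1-/- hippocampus, against 12, 12.8 and 11.4 CPM in wild type hippocampus (0.53 ± 0.12, edgeR adjusted p = 0.03). Cbx7 had 44.2, 42.5 and 44.7 CPM in Dnmt3a1-/- hippocampus, against 32.5, 33.8 and 33.3 CPM in wild type hippocampus (0.38 ± 0.09, edgeR adjusted p = 0.034). Both were separated from wild type in all libraries. At an unadjusted p under 0.05 edgeR counted 8 members, beside 18% of all genes. Across the members, 8 were higher in all mutant libraries and 4 were lower in all, together 29.3% of members, beside 22.3% of all genes (13.9% higher and 8.34% lower).

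These 2 calls depended on single libraries. Both were lost without wild type replicate 2 or 3 and without mutant replicate 2 or 3, Cbx7 was lost without mutant replicate 1 (edgeR adjusted p = 0.075), and both stayed called without wild type replicate 1. With a term in the model for the level of Xist, the X inactivation RNA, which is high in 1 library of every group, Cbx7 had an adjusted p of 0.052. Choroid plexus markers summed to 60.4 to 1840 CPM in Dnmt3a1-/- hippocampus, against 78.5 to 106 CPM in wild type hippocampus. Hippocampal markers summed to 757 to 807 CPM in Dnmt3a1-/- hippocampus, against 899 to 944 CPM in wild type hippocampus, with 2 of 8 called lower, Lct (-0.89) and Wfs1 (-0.44). Of 8 astrocyte markers Aqp4 was called lower (-0.68). Reads outside genes made up 9.69% to 10.3% in Dnmt3a1-/- libraries, against 8.41% to 8.74% in wild type. The part of these in the result was not tested.

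Other members that were called in cortex did not pass in hippocampus. Phf1 had 36.8, 37.2 and 32.3 CPM in Dnmt3a1-/- hippocampus, against 25.6, 29.1 and 29.1 CPM in wild type hippocampus (0.31 ± 0.09, edgeR adjusted p = 0.098). Usp16 had 44.4, 51.7 and 53.7 CPM in Dnmt3a1-/- hippocampus, against 41.6, 40.9 and 39.1 CPM in wild type hippocampus (0.29, edgeR adjusted p = 0.15). Both genes were higher in each mutant library. Ring1 overlapped, at 33.4, 34.3 and 29.6 CPM in Dnmt3a1-/- hippocampus, against 28.7, 28.8 and 33.8 CPM in wild type hippocampus.

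Ezh2 had 14.2, 16.3 and 18.1 CPM in Dnmt3a1-/- hippocampus, against 14.4, 13.3 and 11.6 CPM in wild type hippocampus, with 1 mutant library inside the wild type range (0.31 ± 0.13, edgeR adjusted p = 0.25). Ezh1 had 62.3, 60.5 and 59.6 CPM in Dnmt3a1-/- hippocampus, against 59.2, 64.6 and 67.0 CPM in wild type hippocampus, overlapping. Rnf2 had 25.7, 25.0 and 24.6 CPM in Dnmt3a1-/- hippocampus, against 21.9, 20.9 and 22.1 CPM in wild type hippocampus, higher in each mutant library but not called (edgeR adjusted p = 0.3). The demethylase genes overlapped: Kdm6a had 23.8, 32.3 and 25.0 CPM in Dnmt3a1-/- hippocampus, against 25.7, 33.1 and 22.5 CPM in wild type hippocampus, and Kdm6b had 41.4, 33.0 and 29.3 CPM in Dnmt3a1-/- hippocampus, against 35.6, 28.7 and 29.5 CPM in wild type hippocampus.

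The Dnmt3a1-/- change in hippocampus minus that in cortex was tested in 1 model on the shared identifiers. No member was called, and 0% of all genes were. DESeq2 called no member either, and at an unadjusted p under 0.05 edgeR counted 2 members, beside 5.03% of all genes. They were Ezh1 (-0.31 ± 0.11) and Ring1 (-0.27 ± 0.12). For Pcgf2 the difference between the tissues was -0.07 ± 0.15 and for Cbx7 -0.01 ± 0.11.

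**Figure D3:**
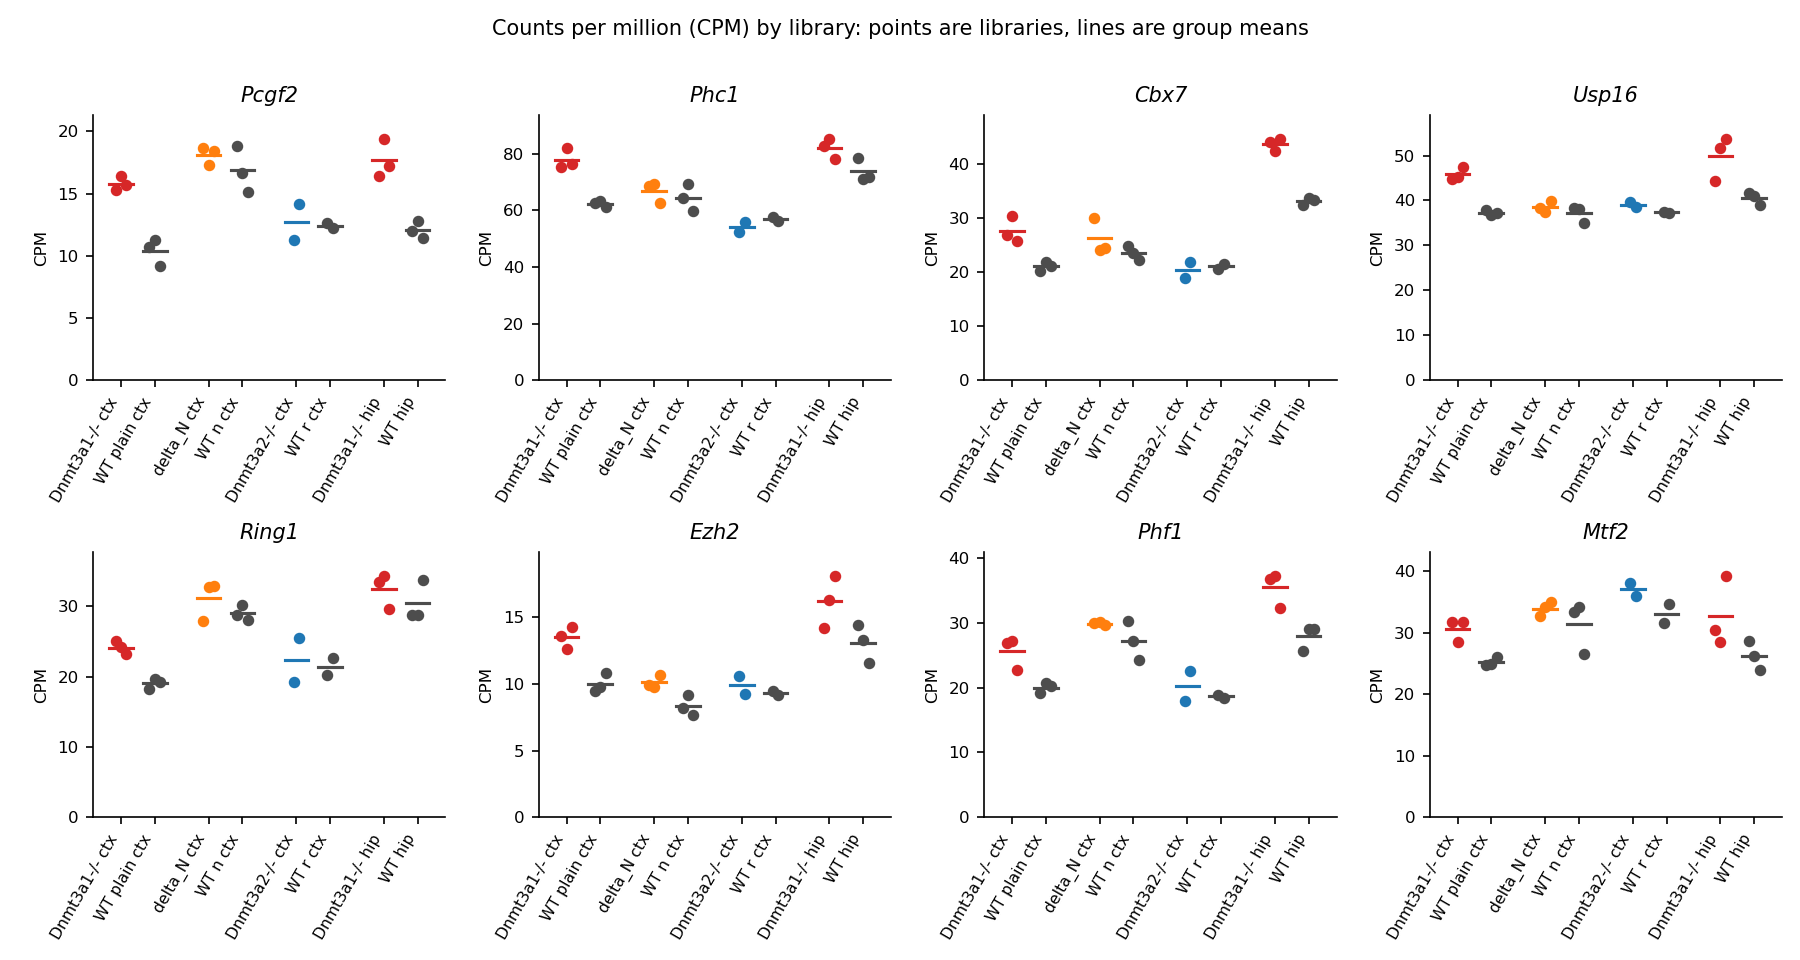
The level of each library in CPM (points) is shown with group means (lines) for the 8 members called in Dnmt3a1-/- cortex, with each mutant left of its own wild type series (ctx, cortex; hip, hippocampus; delta_N, Dnmt3a1_delta_N; plain, n and r, the wild type series). Pcgf2 and Ring1 stand higher in wild type series n than in the plain series, while Phc1, Cbx7, Usp16 and Ezh2 in Dnmt3a1-/- cortex stand above all 8 wild type cortex libraries.

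In the nuclei labelled Dnmt3a1-/- no member was called, where 0.246% of all genes were called. At an unadjusted p under 0.05 edgeR counted 5 members, beside 8.98% of all genes, and DESeq2 called no member after adjustment. Bcor, which encodes a corepressor that assembles the variant PRC1 with PCGF1, had 57.0 and 56.6 CPM in nuclei labelled Dnmt3a1-/-, against 37.5 and 43.5 CPM in wild type nuclei (0.49 ± 0.14, edgeR adjusted p = 0.21). Auts2 had 131 and 124 CPM in nuclei labelled Dnmt3a1-/-, against 98.6 and 95.7 CPM in wild type nuclei (0.40 ± 0.14, edgeR adjusted p = 0.35). Both were higher in each library so labelled.

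Cbx7 had 81.6 and 63.7 CPM in nuclei labelled Dnmt3a1-/-, against 59.8 and 50.3 CPM in wild type nuclei (0.40 ± 0.15, edgeR adjusted p = 0.43), again without overlap. In the other direction Yaf2, a paralogue of Rybp, had 23.3 and 31.5 CPM in nuclei labelled Dnmt3a1-/-, against 32.5 and 46.0 CPM in wild type nuclei (-0.52 ± 0.19, edgeR adjusted p = 0.39). Pcgf5 and Suz12 followed it at -0.22 and -0.16. With the Xist term in the model 740 genes were called in place of 39, 4.67% of all tested in place of 0.246%, and 4 members were among them: Bcor (edgeR adjusted p = 0.0012), Yaf2 (adjusted p = 0.0028), Auts2 (adjusted p = 0.0075) and Cbx7 (adjusted p = 0.012). Over the 4 fits that leave out 1 library the difference of Yaf2 ran from -0.75 to -0.26. Without labelled replicate 2 it was called (-0.75, edgeR adjusted p = 0.019), in a fit that takes the lone labelled library to vary like the wild type ones.

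The other members named for cortex overlapped in the nuclei or were close to it. Pcgf2 had 115 and 92.9 CPM in nuclei labelled Dnmt3a1-/-, against 108 and 94.8 CPM in wild type nuclei. Ezh2 had 24.1 and 25.9 CPM in nuclei labelled Dnmt3a1-/-, against 23.2 and 19.3 CPM in wild type nuclei, and Ezh1 had 108 and 88.4 CPM in nuclei so labelled, against 79.3 and 80.8 CPM in wild type. Rnf2 had 40.5 and 51.6 CPM in nuclei labelled Dnmt3a1-/-, against 45.4 and 52.2 CPM in wild type nuclei. These differences were not called, those of Ezh1 and Ezh2 without overlap included, and 39.0% of members and 38.5% of all genes had groups without overlap.

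Kdm6a had 65.8 and 102 CPM in nuclei labelled Dnmt3a1-/-, against 72.8 and 103 CPM in wild type nuclei, and Kdm6b had 76.7 and 65.7 CPM in nuclei so labelled, against 59.7 and 77.9 CPM in wild type. For the label's difference in nuclei minus the Dnmt3a1-/- change in cortex, no member was called by edgeR or DESeq2, where 0.341% of all genes were called by edgeR, and 6 members had an unadjusted p under 0.05, beside 13.8% of all genes. Bcor came nearest (0.58 ± 0.15, edgeR adjusted p = 0.098), and Pcgf2 followed (-0.55 ± 0.17, adjusted p = 0.15).

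More members were called between wild type tissues than between genotypes. In wild type NeuN nuclei 34 members were higher than in wild type cortex and 5 lower, leaving Pcgf5 and L3mbtl2 not called, in a comparison where 85.5% of all 17317 genes were called, 42.7% in each direction. The share of members called higher was 82.9%, and their median fold change was 1.00, beside -0.02 over all genes. All 6 genes of the PRC2 core, both E3 ligase genes, all 4 polyhomeotic and SCM genes and both H3K27 demethylase genes were among the higher ones.

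The largest difference was that of Mtf2, with 313 and 351 CPM in the 2 wild type nuclei libraries, against a range of 24.8 to 34.7 CPM with a median of 29.0 CPM over the 8 wild type cortex libraries (3.22 ± 0.07, edgeR adjusted p = 2e-16). Pcgf6, which encodes the PCGF protein of the variant complex with E2F6 and MGA, had 162 and 175 CPM in nuclei, against a median of 17.8 CPM in cortex (2.97 ± 0.07). Pcgf2 had 94.8 to 108 CPM in nuclei, against 9.17 to 18.8 CPM in cortex (2.71 ± 0.08). For all these genes the ranges lie far apart. Next came Pcgf1 (2.06), Asxl3 (1.91), Cbx2 (1.80), Usp16 (1.71), Kdm6b (1.65), and Ring1 and Asxl2 (1.62 each).

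Lower in nuclei were Yaf2, with 32.5 and 46.0 CPM in nuclei, against 72.9 to 95.5 CPM in cortex (-1.38 ± 0.10), the CBX gene Cbx6 (-0.94 ± 0.08), Phf19 (-0.81 ± 0.27), Rybp (-0.75 ± 0.15) and Bap1, the catalytic deubiquitinase (-0.68 ± 0.07). Rybp had 9.43 and 16.4 CPM in nuclei, against 14.9 to 21.0 CPM in cortex, so its libraries overlapped. Without single libraries the difference of Rybp ran from -1.17 to -0.41. Phf19 overlapped too and was near the limit of counting, with 22 and 26 reads in the nuclei libraries. Its level was 0.625 and 0.734 CPM in nuclei, against 0.731 to 1.39 CPM in cortex. Nuclei and tissue differ in compartment as well as in cell types: astrocyte markers summed to 724 to 738 CPM in wild type nuclei, against 11600 to 16100 CPM in wild type cortex. RNA retained in the nucleus and RNA of neurons cannot be told apart here.

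In wild type hippocampus 18 members were higher than in wild type cortex and 8 lower, where 55.6% of all 16158 shared genes were called, 27.3% as higher and 28.3% as lower. Pcgf5, which encodes the PCGF protein of another variant PRC1, had 12 to 14.0 CPM in hippocampus, against 4.57 to 6.0 CPM in cortex, both counted over the shared identifiers (1.18 ± 0.09, edgeR adjusted p = 1.8e-08). Asxl3 was higher by 0.78 ± 0.10, Auts2 by 0.69 ± 0.07 and Ezh1 by 0.59 ± 0.07. Ezh1 had a median of 65.4 and at most 67.8 CPM in hippocampus, against 35.2 to 47.0 CPM in cortex, and its libraries did not overlap between the tissues.

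Cbx7 had 32.9 to 34.2 CPM in wild type hippocampus, against 20.3 to 25.0 CPM in wild type cortex (0.54 ± 0.06, edgeR adjusted p = 8.8e-07). Ezh2 was higher in hippocampus by 0.44 ± 0.09, Kdm2b, which recruits a variant PRC1 to unmethylated CG islands, by 0.41 ± 0.08 and Asxl1 by 0.36 ± 0.06. Yaf2 was the lowest, with 34.7 to 40.3 CPM in hippocampus, against 73.3 to 96.2 CPM in cortex (-1.25 ± 0.06, edgeR adjusted p = 9.7e-11). Then came Pcgf3 (-0.44), Rnf2 (-0.30), Aebp2 (-0.26), Rybp (-0.25), Mtf2 and Bmi1 (-0.24 each) and Rbbp4 (-0.16). Apart from Pcgf3, the libraries of these genes overlapped between the tissues. Mtf2, for example, had 24.2 to 28.9 CPM in hippocampus, against 24.9 to 35.0 CPM in cortex.

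Of the 26 members called against the 8 cortex libraries, 18 were called against the plain series alone, 22 against r alone and 15 against n alone. The shares of all genes called in those single-series fits were not set beside them, so these are given as counts alone. Kdm6b and Ring1 were called higher in hippocampus as well (0.71 ± 0.10 and 0.36 ± 0.07), but not against series n alone (Kdm6b 0.28, edgeR adjusted p = 0.081, and Ring1 0.05). Tissue, library series and the larger gene annotation of the hippocampus files cannot be told apart.

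**Figure D4:**
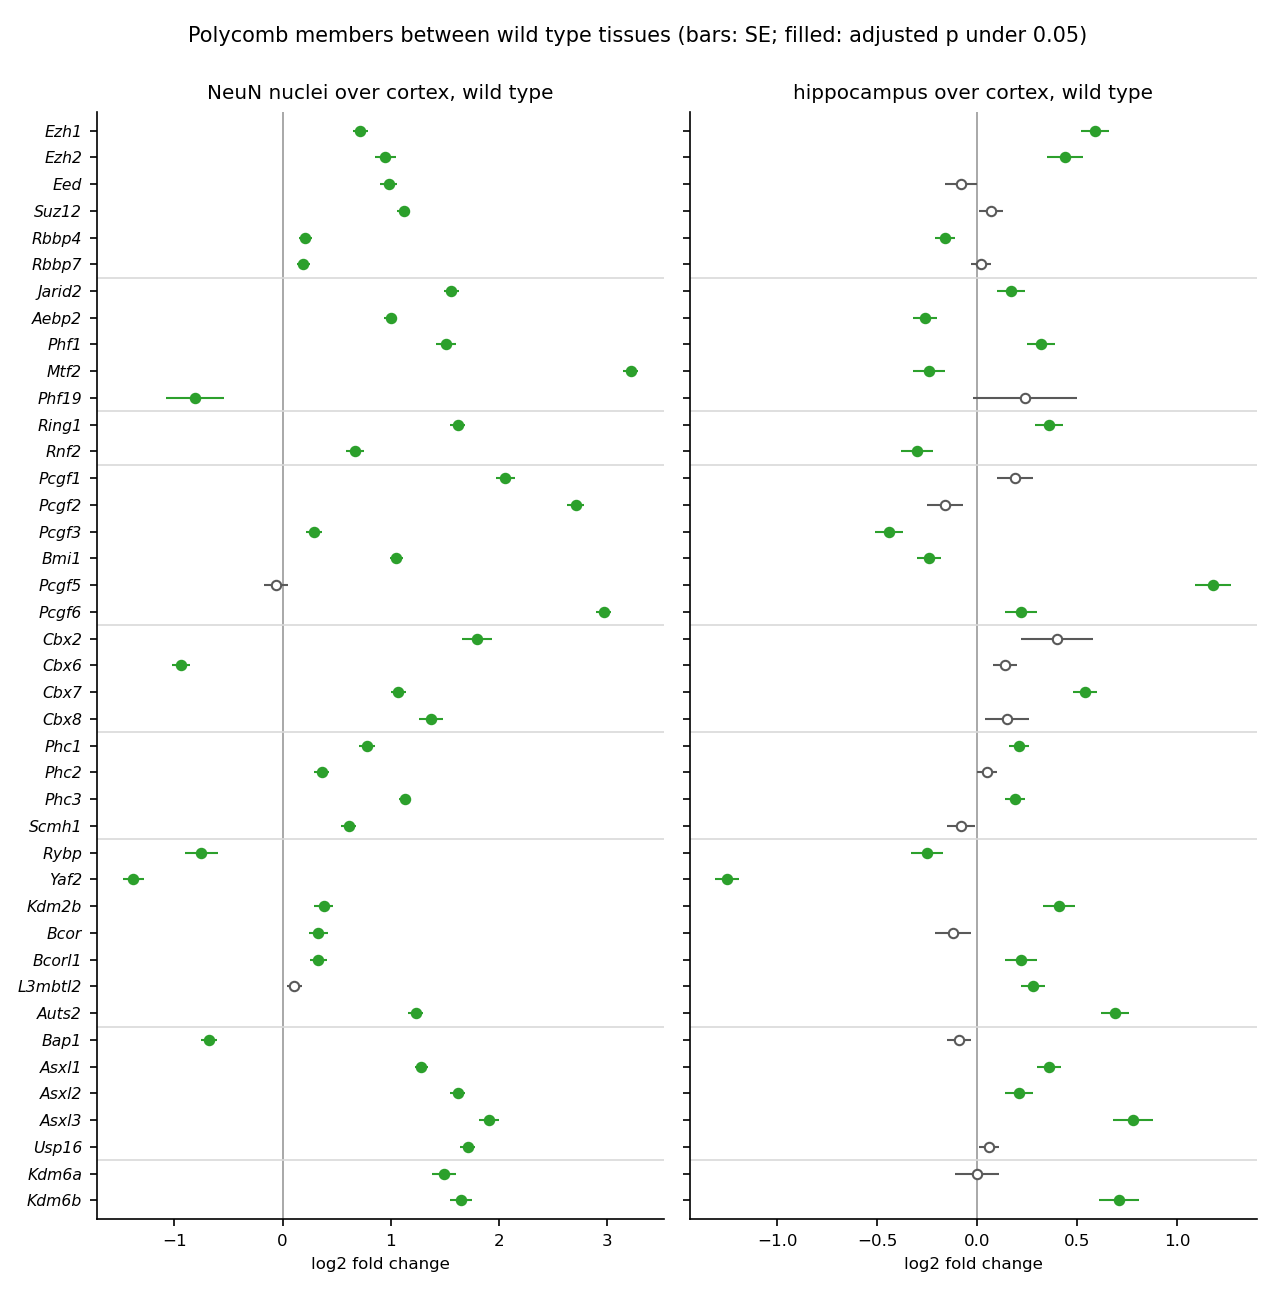
The log2 fold change of each member with its SE is drawn for wild type NeuN nuclei over wild type cortex (left) and wild type hippocampus over wild type cortex (right), filled where the adjusted p was under 0.05. In the nuclei 34 members lie filled on the right of 0 and 5 on the left, and in the hippocampus 18 and 8.

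Kdm6a, the X-linked H3K27 demethylase, varied within groups in a regular way. Each of the 10 groups holds 1 library with a high level of Xist, the RNA that coats the inactive X chromosome, from 291 to 3480 CPM, while the other 16 libraries have 0 to 1.18 CPM. In 10 of 10 groups Kdm6a was highest in the Xist-high library. The member that came next, Jarid2, was highest there in 7 of 10 groups. Over 14081 shared genes with a mean of at least 1 CPM, 8 genes did so in every group (0.0568%), namely Kdm6a itself, Xist, Ddx3x, Eif2s3x and Kdm5c, which are X-linked, and Ndufa12, Npy and Stmn3, which lie on other chromosomes. This pattern was chosen after its values were seen and is given as a description with no test.

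**Figure D5:**
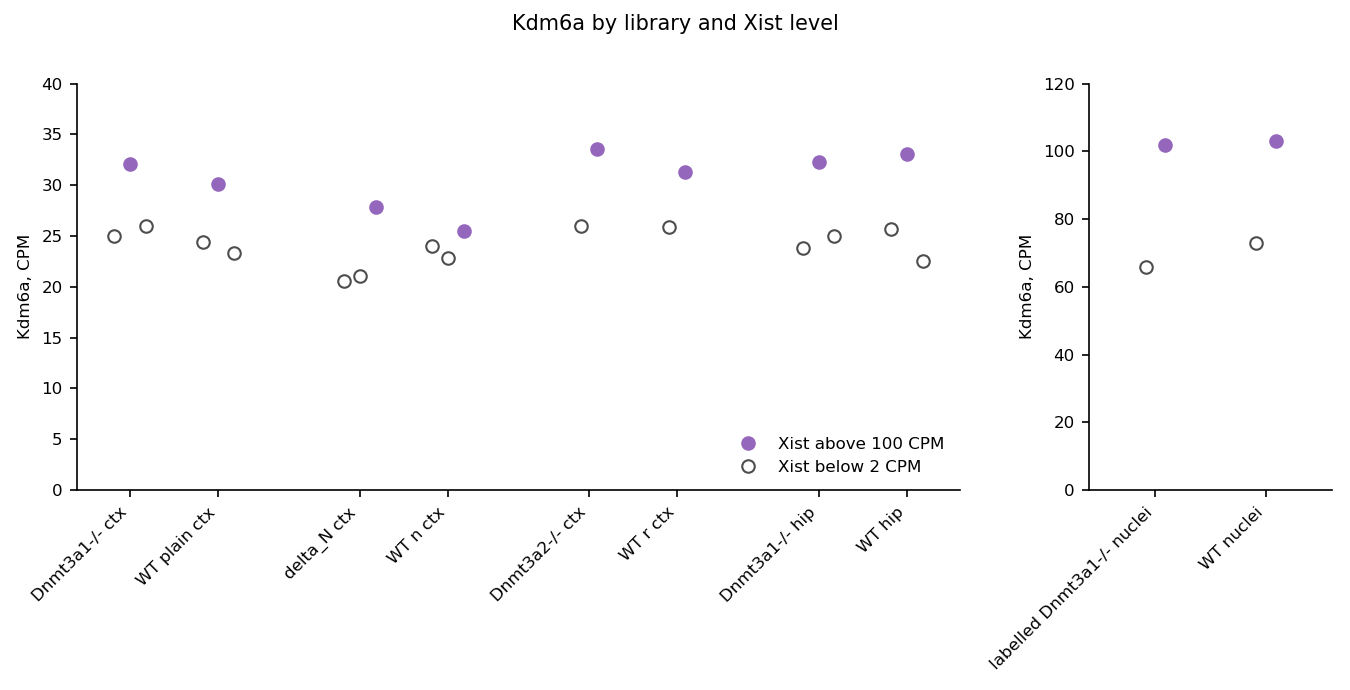
Kdm6a in CPM is plotted for each library of the 10 groups (ctx, cortex; hip, hippocampus; nuclei on their own axis at right), filled where Xist was above 100 CPM. The filled point is the highest of its group in all 10 groups.

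Genes that work beside the set were counted from further lists. Of 27 tested partners of Polycomb outside the 41 members, 3 were higher in Dnmt3a1-/- cortex and none lower. They were Sfmbt2, an MBT domain gene (5.11 CPM in mutant libraries on average, against 2.9 CPM in wild type, 0.80 ± 0.17, edgeR adjusted p = 0.0055), Mbtd1 (30.6 CPM, against 24.4 CPM in wild type) and Fbrsl1, a paralogue of Auts2 (0.38 ± 0.10). Of 14 further H2A deubiquitinases and BAP1 partners 2 were higher, Mbd6 (0.57 ± 0.08) and Usp3 (0.47 ± 0.08), and 2 lower, Usp46 (-0.28 ± 0.06) and Foxk2 (-0.30 ± 0.07). Of 22 genes of the opposing trithorax methyltransferase complexes 3 were higher, namely Setd1a, Kmt2b and Pagr1a, and of 26 SWI/SNF genes 1, Smarcd2. The shares in these lists are set beside the 17.9% of all genes called in that comparison.

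Genes that Polycomb silences in other tissues were mostly too low to test. All 39 listed HOX genes had too few reads to be tested in any comparison. In Dnmt3a1-/- cortex, of 13 developmental regulators with enough reads to be tested, out of 50 listed, Gata2 was called (0.60 ± 0.13, edgeR adjusted p = 0.0072). In Dnmt3a1-/- hippocampus Samd11 (1.51 ± 0.27) and Fbrsl1 (0.40 ± 0.09) were higher among 28 tested Polycomb partners, and Mbd6 (0.54 ± 0.09) among the 14 deubiquitinases and BAP1 partners. Of all genes tested in hippocampus 2.52% were called, 1.69% as higher.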

How the data were processed

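RNA sequencing libraries of cortex, hippocampus and NeuN-sorted cortical nuclei were analysed. Per the labels' protocols, a stranded mRNA kit was used. Per the submitters' processing notes, STAR 2.5.4a, HTSeq 0.11.0 and build mm9 were used. The authors deposited counts, whole numbers of reads per gene, 1 library per file. The annotation release and the strand setting are not given in the sources used here, so overlapping and antisense genes may share reads. Between 21.14% and 36.97% of reads were in lines naming no gene and were left out.

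Symbols came from the supplied name table (32620 cortex and nuclei identifiers, 55394 hippocampus identifiers). Comparisons across tissues used 32601 shared identifiers. The members and lists were chosen with earlier results of these data known. Genes passing edgeR's filterByExpr were scaled by TMM and tested with edgeR 4.0.16 (R 4.3.3), quasi-likelihood with robust dispersion, adjusted over all genes, with the groups of each comparison alone in the fit. SE is the fold change over the root of F. The fits were tested on simulated data. Alternatives were DESeq2 1.42.0, DESeq2-type size factors, no filter, 1 library left out, a replicate block, an Xist term, pooled or single wild type series and 1 fit over the 16 cortex libraries.

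Same-numbered libraries' deviations from their group means correlated at 0.237, 0.376 and 0.184 in the Dnmt3a1-/- cortex comparison and at 0.373, 0.24 and 0.419 in the Dnmt3a1_delta_N one, so those numbers were taken to pair the libraries, from the data and not the labels; they also share the Xist level. In hippocampus (-0.0556, 0.272 and 0.0261) they were not. Values of every library are given for members called in a mutant comparison and for Ezh2, Ezh1, Rnf2, Kdm6a and Kdm6b; where none was called, the 3 smallest p in each direction are named, between tissues the 10 largest changes each way, and from further lists up to 4 called genes.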

Additional observations from a re-analysis of the deposited data

How the results depend on the processing

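The counts of called members stayed within 1.5 times of those reported in 59 of 69 settings other than leaving out a library. Settings in which 0 called members stayed 0 are included in the 59, so the ratio says less about the other counts. In hippocampus, the 2 called members became 0 with the replicate block (Pcgf2 adjusted p = 0.059, Cbx7 adjusted p = 0.085) and 1 with the Xist term at 1 CPM and 1 at 100 CPM, a cut chosen after seeing the data because 1 library had 1.18 CPM. In the labelled nuclei, 0 became 4 with the replicate block and 4 with either Xist term, which are the same fit there. DESeq2 called 7 rather than 11 members between series r and plain. Of the interactions, nuclei minus cortex gave 1 member without the low-count filter (Bcor) and 4 with the replicate block, where 5.21% of all genes were called. Dnmt3a1_delta_N minus Dnmt3a1-/- gave 1 with the block, where 2.91% of all genes were called. The block took the genes called in Dnmt3a1-/- cortex from 2845 to 4941 and changed no other count of members by over 1.5 times. The causes were not tested.

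Leaving out 1 library gave 0 to 2 members in hippocampus, 0 to 1 in the labelled nuclei, 2 to 11 between r and plain, 4 to 13 between r and n and 5 to 6 between n and plain. Genes called in Dnmt3a1-/- cortex ranged from 1599 to 2725 then, and in hippocampus from 86 to 783.

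Fold changes reversed with all 8 wild type cortex libraries as control for Pcgf1 in Dnmt3a1-/- cortex (-0.02, from 0.32) and for Kdm6b (-0.41, from 0.11) and Pcgf3 (0.05, from -0.15) in Dnmt3a2-/- cortex, and against series r alone for Rbbp7 in nuclei (-0.02, from 0.19). The tissue difference of Cbx7, -0.01, became 0 without the filter and ran from -0.06 to 0.07 without single libraries. Groups of 2 or 3 libraries limit every comparison, and Phf19 has as few as 5 reads.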
